A study of Canis lupus familiaris with 6 samples.

Results

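Cartilage matrix genes other than collagens were followed in drilled mandibular bone of beagle dogs, as 5 genes: ACAN, HAPLN1, COMP, CNMD and SOX9. The members were all probe sets that the array annotation assigns to 1 of these symbols alone, which gave 7 of the 42860 probe sets of the table: 3 for COMP and 1 for each of the others. The holes, 4.5 mm in diameter and 8 mm long, were made after 3 months of healing from premolar extraction in dogs 9 years old, and tissue cylinders of the same size were taken 4, 7 and 14 days later. In the beta-TCP groups of days 4, 7 and 14 the hole was implanted with beta-TCP, the ceramic beta-tricalcium phosphate, which is used to fill bone defects and is resorbed over time. In the control groups of days 4, 7 and 14 the hole received no beta-TCP. Each of these 6 groups holds 1 Affymetrix canine array, and the labels do not say how many dogs were used or which cylinders shared a dog. Single-day differences therefore carry no error and no test, and the number of arrays limits the precision of every value below.

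Aggrecan, encoded by ACAN, is the large chondroitin sulphate proteoglycan that lets cartilage hold water and resist compression. HAPLN1 encodes the link protein that fastens aggrecan to hyaluronan, and COMP a secreted protein of cartilage, tendon and ligament that bridges collagen fibrils. CNMD encodes chondromodulin, a glycoprotein of avascular cartilage that inhibits vessel growth, and SOX9 the transcription factor that directs chondrocyte differentiation and activates aggrecan and type II collagen genes. Bone defects can heal through cartilage or by direct bone formation, and osteoblast-lineage cells and tendon can transcribe some of these genes as well.

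Levels are given as multiples of the median of all probe sets on the same array, and a value under 1 is called near the floor. Differences are log2(multiple + 1), beta-TCP minus control unless 2 days are named, so the change of weak genes is understated. For tests across genes, each gene was read on its probe set of highest mean, and the 10530 genes whose mean log2 value reached the 40th percentile of all probe sets (0.70) were kept. ACAN (mean 3.16), COMP (2.55), HAPLN1 (2.17) and CNMD (0.77) passed and SOX9 (0.54) did not, so 4 of the 5 genes entered the fit. CNMD passed only through its beta-TCP day 7 reading, as the mean of its remaining log2 values lies under the limit. A gene kept through few high arrays can stand out on them for that reason. Of the 3 COMP probe sets, the second (1.25) was above the same limit and the third (0.12) below it.

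Some facts of the arrays touch all results. The values of day 14 were deposited on another scale than those of days 4 and 7, so in differences between days the effect of day 14 cannot be told apart from how its arrays were processed. The beta-TCP day 14 array stood furthest from the rest, with Spearman correlations between 0.723 and 0.779, where those among the other 5 arrays lay between 0.832 and 0.905. Probe sets named CfaAffx read lower there relative to probe sets named Cfa of the same gene: the centred median difference over 1639 genes was -0.81 on the beta-TCP array and -0.19 on the control array of day 14, and between 0.03 and 0.40 on the other 4. ACAN and the leading COMP probe set are of the Cfa kind, and the probe sets of HAPLN1, CNMD and SOX9 are of the CfaAffx kind. The median of all kept genes lay at 0.17, -0.08 and -0.23 on days 4, 7 and 14, which is the level each difference stands against.

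**Figure D1:**
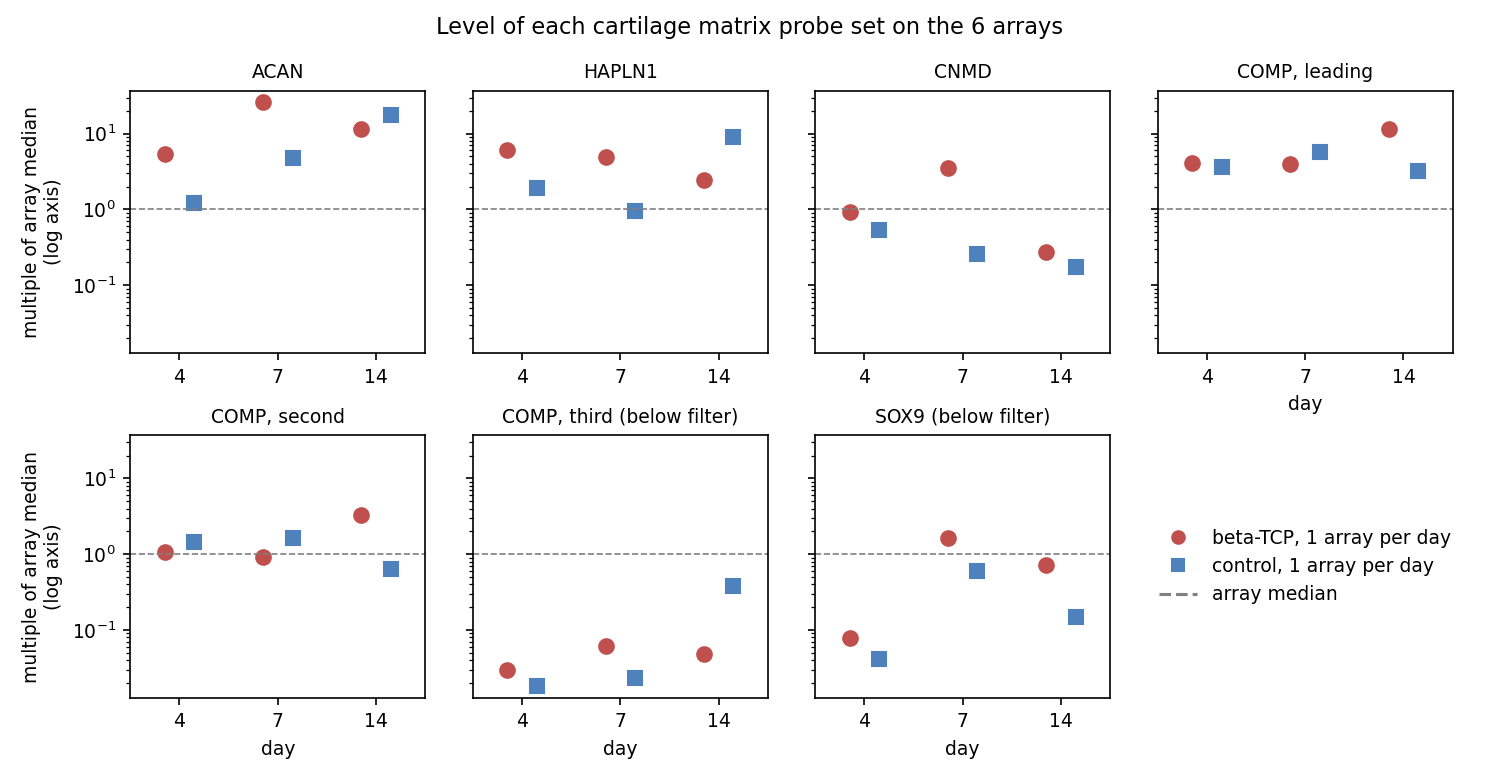
Level of the 7 member probe sets (multiple of the array median, log axis) by day, with 1 point per array, circles for beta-TCP and squares for control. ACAN and HAPLN1 lie higher with beta-TCP on days 4 and 7 and lower on day 14, the 2 upper COMP probe sets are highest on the beta-TCP day 14 array, and CNMD is above the array median on the beta-TCP day 7 array alone.

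ACAN was higher with beta-TCP on days 4 and 7 and not on day 14. Its probe set read 5.34 on the beta-TCP array against 1.20 on the control array at day 4, 25.8 against 4.70 at day 7, and 11.6 against 17.9 at day 14. The beta-TCP level was thus 4.43 times the control level at day 4, 5.49 times at day 7 and 0.649 times at day 14. All 6 readings were above the array median, and the control day 4 array was the lowest of them. The log2 differences were 1.52, 2.23 and -0.58. Of the 10530 kept genes, 46 had a larger difference at day 4 and 26 at day 7, whereas 68.3% had a larger one at day 14. With quantile normalization, scaling to the 90th percentile or centring on the kept genes, the day 4 and day 7 differences stayed between 1.34 and 2.31, and the day 14 difference lay between -0.30 and -0.17.

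HAPLN1, the partner of aggrecan on hyaluronan, ran the same way on days 4 and 7 and further the other way on day 14. The readings were 6.11 with beta-TCP against 1.94 in the control at day 4, 4.97 against 0.942 at day 7, and 2.44 against 9.07 at day 14. The control day 7 array was the single one near the floor, and the control day 14 array was the highest of all 6. The log2 differences were 1.27, 1.62 and -1.55. The beta-TCP level was 3.14 times the control level at day 4 and 0.269 times at day 14. At day 7 the ratio was 5.27 against a control reading near the floor. In all, 72 of the kept genes (0.684%) differed by 2-fold or more in favour of beta-TCP on both days 4 and 7, and 30 of these, HAPLN1 among them, were also at least 2-fold lower at day 14. The day 14 value was read on a CfaAffx probe set on the array where that kind reads low, and 17.3% of genes led by such probe sets were at least 2-fold lower there, against 13.5% of genes led by Cfa probe sets. The part of this shift in the HAPLN1 difference was not tested.

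COMP showed another order, with its high reading on the beta-TCP array of day 14. The leading probe set read 4.05 with beta-TCP against 3.62 in the control at day 4, 3.93 against 5.66 at day 7, and 11.6 against 3.20 at day 14. The beta-TCP day 14 array stands alone, and the other 5 readings lie within 3.20 to 5.66. The log2 difference at day 14 was 1.59, and 59 kept genes had a larger one. The difference was -0.43 at day 7. At day 4 it was 0.13, and it turned to between -0.08 and -0.04 under the other scalings. The second probe set gave 1.07 against 1.44, 0.931 against 1.64 and 3.26 against 0.633 on the same days, beta-TCP before control. It too was highest on the beta-TCP day 14 array, with a log2 difference of 1.38, on a probe set of the kind that reads low there. The third probe set stayed near the floor on all 6 arrays, between 0.0182 and 0.375, and its day 14 difference was -0.39. Averaged over all 3 probe sets, the day 14 difference of COMP was 0.86, under 2-fold.

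CNMD was above the array median on 1 array. Its readings were 0.917 with beta-TCP against 0.528 in the control at day 4, 3.47 against 0.255 at day 7, and 0.274 against 0.175 at day 14. The beta-TCP array was the higher one on each day, but on days 4 and 14 both were near the floor, with log2 differences of 0.33 and 0.12. The day 7 difference was 1.83, with 58 kept genes above it. Since the control reading is near the floor, that size follows the pseudocount, being 2.88 with 0.25 and 0.26 with 16 in place of 1.

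SOX9 was near the floor on 5 of the 6 arrays. The probe set read 0.0786 with beta-TCP against 0.0417 in the control at day 4, 1.65 against 0.601 at day 7 and 0.726 against 0.150 at day 14. Its 1 reading above the array median was on the beta-TCP day 7 array, the array on which ACAN and CNMD also had their highest readings. The log2 differences of 0.05, 0.73 and 0.59 were all under 2-fold with the pseudocount of 1. The ratios of the readings were 1.88, 2.75 and 4.84, each against a control reading near the floor. SOX9 entered no test.

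Counted over the 4 kept members, 2 were at least 2-fold higher with beta-TCP at day 4 (ACAN and HAPLN1) and 0 lower, where 4.52% of all kept genes were higher and 3.1% lower. At day 7, 3 were higher (ACAN, CNMD and HAPLN1) and 0 lower, against 2.96% and 3.44% of all kept genes. CNMD was kept only through its beta-TCP reading of that day, so its place in this count is not independent of the filter. At day 14, 1 was higher (COMP) and 1 lower (HAPLN1), against 3.47% and 15.4%. Under the other scalings the shares of all kept genes were 2.15% to 2.88% higher and 4.61% to 5.57% lower at day 4, and 7.33% to 9.18% higher and 8.05% to 10.3% lower at day 14. The medians over the 4 were 0.80, 1.73 and -0.23 on days 4, 7 and 14, beside the medians of all kept genes given above. The genes were listed with earlier results of these arrays known, so these counts are a description.

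**Figure D2:**
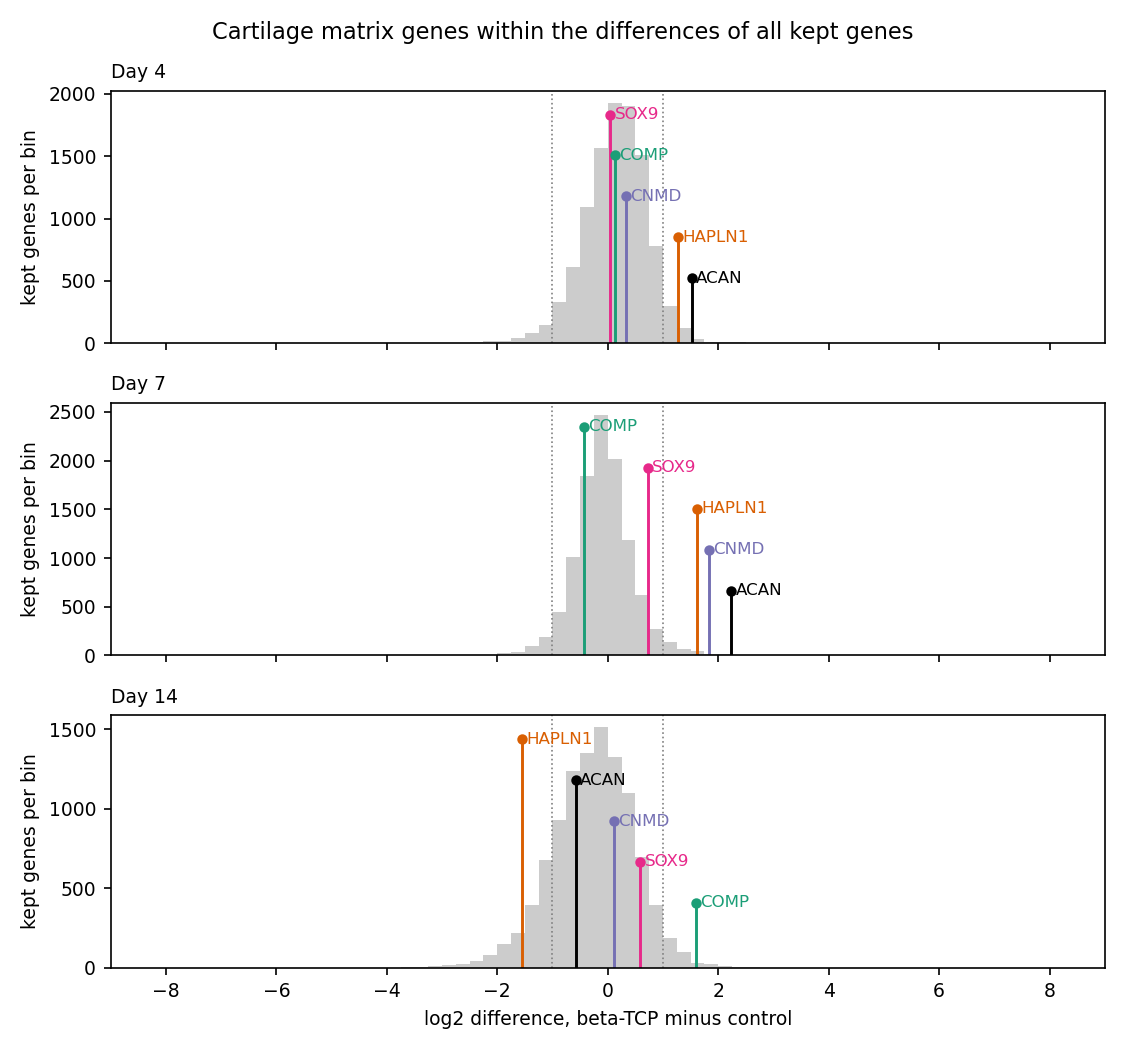
Log2 difference, beta-TCP minus control, of the leading probe set of each member (coloured lines) over the distribution of 10530 kept genes (grey bars, number of genes per bin of 0.25), for days 4, 7 and 14, with dotted lines at 2-fold. SOX9 was not among the kept genes. ACAN and HAPLN1 lie right of the 2-fold line on days 4 and 7, HAPLN1 lies left of it on day 14 and COMP right of it.

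The treatment difference averaged over days was tested with limma's additive fit of day and treatment to the 6 arrays (2 residual degrees of freedom). No member passed an adjusted p of 0.05, and neither did any other gene (0 of 10530, or 0%, with 4.87% at an unadjusted p under 0.05). ACAN had an average difference of 1.06 ± 0.47 (SE), the largest of the 4, with an unadjusted p of 0.046 in limma's fit. CNMD had 0.76 ± 0.38, HAPLN1 0.45 ± 0.52 and COMP 0.43 ± 0.40. For all 4 the limma adjusted p was 0.9998. In this fit the change of the treatment difference between days is part of the residual, and for all 4 the average is smaller than the SD of the 3 single-day differences around it, which was 1.46 for ACAN, 0.94 for CNMD, 1.74 for HAPLN1 and 1.04 for COMP.

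The call depended on the pair of day 14. Fitted to days 4 and 7 alone, with 1 residual degree of freedom, ACAN differed by 1.88 ± 0.34 (SE, limma adjusted p = 6.755e-05) and HAPLN1 by 1.45 ± 0.34 (limma adjusted p = 0.00527). Both were higher on both days, and 2.09% of all kept genes passed in that fit. CNMD (1.08 ± 0.35, limma adjusted p = 0.0817) and COMP (-0.15 ± 0.34) did not pass. The spread there rests on 1 residual degree of freedom per gene and a prior worth 170.5, so the SE is close to a common value for all genes. The pair left out is the one on which ACAN and HAPLN1 were lower with beta-TCP (-0.58 and -1.55). The members were also chosen with earlier results of these data known, so this fit is a description.

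Across days, ACAN was highest at day 7 on the beta-TCP arrays and at day 14 on the control arrays. The beta-TCP readings of 5.34, 25.8 and 11.6 on days 4, 7 and 14 gave a log2 difference of 2.08 between days 4 and 7, where 4.87% of all kept genes were at least 2-fold higher. Between days 7 and 14 it was -1.09, where 16.6% were lower, and it lay between -0.74 and -0.69 under the other scalings, which is less than 2-fold. The control readings were 1.20, 4.70 and 17.9, higher on each later array, with log2 differences of 1.37 and 1.73 over the same intervals. On the control arrays 15.9% and 4.19% of kept genes were at least 2-fold higher over these intervals. Between days 4 and 14 ACAN differed by 0.99 on the beta-TCP arrays, where 9.72% of kept genes were at least 2-fold higher, and by 3.10 on the control arrays, where 18.6% were. Under the other scalings the value of 0.99 lay between 1.26 and 1.34, past 2-fold. The beta-TCP day 4 reading lay above that of the control day 7 array (5.34 against 4.70), and no spread is known for either.

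HAPLN1 was lower on each later beta-TCP array (6.11, 4.97 and 2.44). Its log2 differences were -0.25 and -0.80 over the successive intervals and -1.05 between days 4 and 14, where 18% of kept genes were at least 2-fold lower. The value of -1.05 moved to between -0.84 and -0.73 under the other scalings. On the control arrays it was low on days 4 and 7 and high at day 14 (1.94, 0.942 and 9.07), and the difference between days 7 and 14 was 2.37, with 19 kept genes above it. COMP differed by -0.03 and then 1.36 on the beta-TCP arrays, where 4.82% of kept genes were at least 2-fold higher over the later interval, and by 0.53 and -0.67 on the control arrays. CNMD differed by 1.22 between days 4 and 7 and by -1.81 between days 7 and 14 on the beta-TCP arrays, and all its control readings were near the floor.

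In the fit, where both treatments are averaged, 0 of the 4 members passed limma's F test over days, against 2.96% of all kept genes. ACAN came nearest, with an adjusted p of 0.129 for that F test and 2.04 ± 0.58 (SE, limma adjusted p = 0.0672) for day 14 minus day 4, a contrast in which 4.92% of kept genes passed. The other 3 members had limma adjusted p-values of 0.470 to 0.738 in the F test. Without the day 7 pair, and also without the day 14 pair, ACAN passed the test over the 2 days left, where 6.71% and 10.4% of all kept genes passed. These fits have 1 residual degree of freedom per gene and priors worth 185.3 and 170.5, so the SE is close to a common value. In the fit without day 7, the effect of day 14 cannot be told apart from how its arrays were processed.

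**Figure D3:**
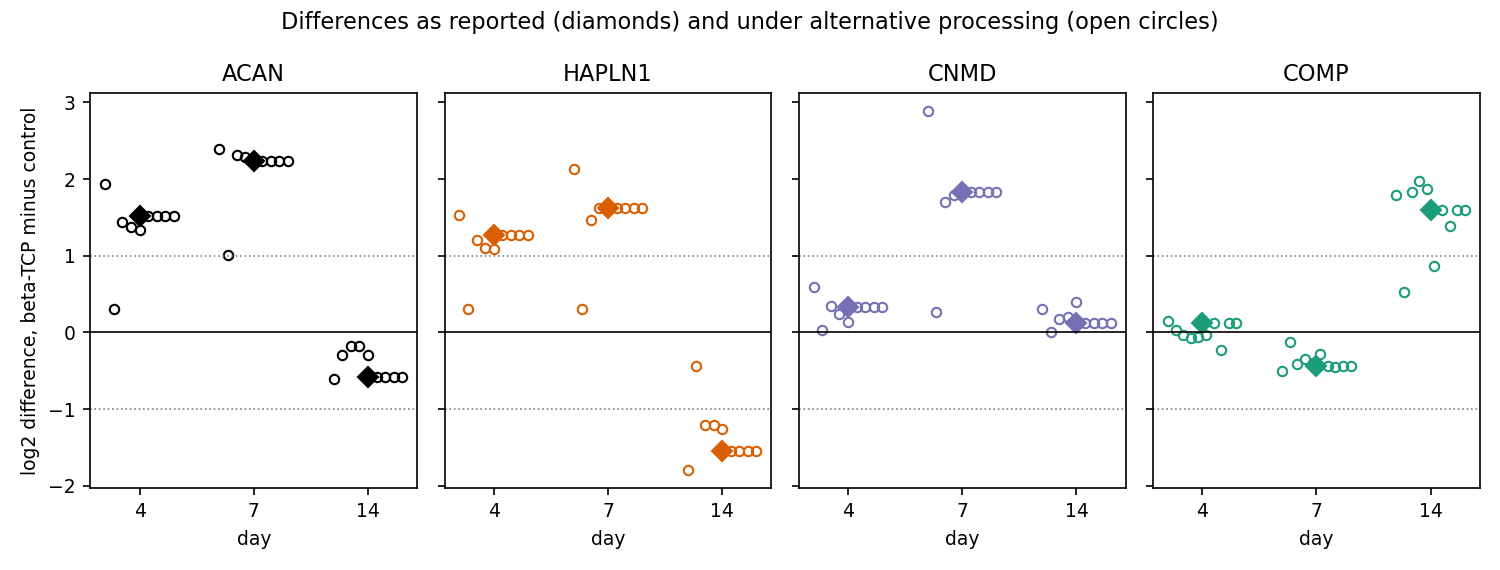
Log2 difference, beta-TCP minus control, of ACAN, HAPLN1, CNMD and COMP by day as reported (diamonds) and under each alternative way of processing (open circles, up to 10 per value), with dotted lines at 2-fold. ACAN and HAPLN1 keep their sign on all 3 days, the COMP difference at day 4 lies on both sides of 0, and the lowest circles of ACAN and HAPLN1 on days 4 and 7 and of CNMD on day 7 are those with a pseudocount of 16.

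The genes whose pattern was most like that of a member were taken by Pearson's r of the log2 values over the 6 arrays, among 10182 kept genes with a symbol. With 6 points that share 1 scaling per array, high values are common, and they are given as a description. ACAN was followed most closely by TENM4, a teneurin of the cell surface (r = 0.994), PTN, the heparin-binding growth factor pleiotrophin (0.992), and MATN2, a matrilin of the extracellular matrix (0.991), and 68 genes exceeded 0.95. PTN read 56.8, 319 and 92.5 on the beta-TCP arrays and 10.7, 34.5 and 169 on the control arrays of days 4, 7 and 14, so its readings were placed like those of ACAN, with beta-TCP higher on the first 2 days and lower on the last. HAPLN1 was nearest to VANGL1, a planar cell polarity gene (0.996), CRABP2, which encodes a retinoic acid binding protein (0.985), and the centrosome gene CEP78 (0.977). For CNMD these were MXD4 (0.976), CTDSP2 (0.973) and the neurotrophin receptor gene NTRK2 (0.969), all highest on the beta-TCP day 7 array. For COMP they were GH1 (0.977), GDAP1L1 (0.976) and the heparan sulphate enzyme gene NDST2 (0.970), all highest on the beta-TCP day 14 array. Between the members themselves r ran from -0.48 (HAPLN1 and COMP) to 0.58 (ACAN and HAPLN1).

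The collagens of cartilage were compared as the matrix in which aggrecan lies. COL2A1, the defining collagen of hyaline cartilage, was near the floor on all 6 arrays, at 0.105, 0.406 and 0.661 on the beta-TCP arrays and 0.0554, 0.374 and 0.25 on the control arrays of days 4, 7 and 14. COL10A1, the collagen of hypertrophic chondrocytes, had its highest reading, 1.01, on the control day 4 array. MATN1, a matrilin of mature cartilage, was near the floor on all 6 as well. Of 8 collagens listed, 5 had a probe set and 3 were kept. COL9A1, a fibril-associated collagen, read 2.04, 4.93 and 5.44 with beta-TCP against 0.349, 1.91 and 1.50 in the controls, higher with beta-TCP on each day by 1.17, 1.03 and 1.36. Its average of 1.19 ± 0.30 (SE) had a limma adjusted p of 0.367. COL11A2 differed by -0.66, 0.87 and -0.85, and COL27A1 by at most 0.17 either way.

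Other non-collagen proteins of cartilage had small medians on all 3 days. Of 20 listed, 17 had a probe set and 9 were kept. Over all kept genes, 4.52%, 2.96% and 3.47% were at least 2-fold higher on days 4, 7 and 14, and 3.1%, 3.44% and 15.4% lower. At day 4, 0 of the 9 were at least 2-fold higher and 0 lower, with a median of -0.31. At day 7, 1 was higher (CHAD, the leucine-rich protein chondroadherin, 1.68) and 0 lower, with a median of 0.07. CHAD passed the filter only through its beta-TCP reading of that day (4.19). At day 14, 1 was higher (UCMA, 1.22) and 1 lower (VCAN, -1.73), with a median of 0.10. HAPLN3, a relative of the link protein gene, had differences of 0.70, 0.91 and 0.52. No gene of the list passed for the average effect of beta-TCP, and VCAN, the hyaluronan-binding proteoglycan versican, passed for days. VCAN read 35.7, 22.4 and 2.68 with beta-TCP and 46.3, 22.1 and 11.2 in the controls. It was lower by 2.64 ± 0.46 (SE, log2, limma adjusted p = 0.0104) at day 14 relative to day 4. Its probe set is of the CfaAffx kind, which read lower on both day 14 arrays than on the day 4 arrays. The part of that shift in the VCAN value was not tested.

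Regulators of chondrocytes read lower with beta-TCP in 8 of 10 kept genes at day 4, 5 at day 7 and 4 at day 14. Of all kept genes, most read higher at day 4 and lower on days 7 and 14. Of 10 kept genes of 15, the number past 2-fold was 0 higher and 1 lower on day 4, 1 higher and 2 lower on day 7, and 1 higher and 2 lower on day 14. Under the other scalings 2 were higher and 0 lower on day 7, and 1 higher and 1 lower on day 14. The day 14 median then lay between 0.23 and 0.45. The gene higher on day 14, BMPR1B (1.15), passed the filter only through its beta-TCP reading of that day. The shares of all kept genes past 2-fold were 4.52%, 2.96% and 3.47% higher and 3.1%, 3.44% and 15.4% lower on these days. The medians were -0.22, -0.03 and 0.16, beside 0.17, -0.08 and -0.23 for all kept genes. PTH1R, the receptor of parathyroid hormone and its related peptide, read 31.6 with beta-TCP against 4.53 in the control at day 7 and had differences of 0.77, 2.56 and 0.33. Its ligand gene PTHLH had differences of -2.04, 0.99 and -1.28, and GDF5, a joint growth factor gene, -0.48, -0.69 and -0.84. SOX6, a partner of SOX9, was near the floor on all 6 arrays, and SOX5 read between 0.731 and 2.50. For the average effect of beta-TCP 0 of the 10 passed, and over days 1 did (PTH1R, limma adjusted p = 0.0484 in the F test).

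Enzymes that make chondroitin sulphate, the sugar chain carried by aggrecan, read lower with beta-TCP at day 14 in 12 of 14 kept genes. Most of all kept genes also read lower on that day (median -0.23). With centring on the kept genes, 11 of the 14 read lower. Of these 14, which include genes of the sulphate supply, 8 were at least 2-fold lower and 0 higher on that day (median -1.03), against 15.4% and 3.47% of all kept genes. Under the other scalings 4 to 7 were at least 2-fold lower and 1 higher, with medians between -1.02 and -0.75. Of the 14, 11 were read on CfaAffx probe sets, the kind that reads low on the beta-TCP day 14 array, and 5 of these 11 and all 3 read on Cfa probe sets were at least 2-fold lower. The part of that shift in the list was not tested. UGDH, which makes the glucuronic acid precursor, had the largest of these differences, reading 5.76 against 32.2 (-2.30), and CHSY1, a chain-polymerizing enzyme gene, read 0.339 against 2.36 (-1.33). At day 4, 0 were higher and 1 lower (median 0.19), with 1 to 4 lower under the other scalings. The shares of all kept genes were 4.52% higher and 3.1% lower. At day 7, 1 was higher and 0 lower (median -0.04), against 2.96% and 3.44% of all kept genes. CSGALNACT2, another chain-building enzyme gene, had differences of -0.79, -0.43 and -0.79. No gene passed for the average effect of beta-TCP. Between days, CHSY1 passed and was lower by 2.08 ± 0.39 (SE, log2, limma adjusted p = 0.0142) at day 14 relative to day 4. It was read on a CfaAffx probe set, a kind that read lower on both day 14 arrays than on the day 4 arrays. The part of that shift in the CHSY1 value was not tested.

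Genes that turn over aggrecan and hyaluronan were kept in 12 of 15 cases. The shares of all kept genes were 4.52%, 2.96% and 3.47% at least 2-fold higher on days 4, 7 and 14. At least 2-fold lower were 3.1%, 3.44% and 15.4%. At day 4, 0 were at least 2-fold higher and 0 lower (median 0.36). At day 7, 0 were higher and 3 lower (median -0.56), namely the metalloproteinase genes MMP3 (-2.18) and MMP13 (-1.30) and the hyaluronan synthase gene HAS2 (-1.33). At day 14, 2 were higher, MMP13 (1.24) and TIMP3, a metalloproteinase inhibitor gene (1.02), and 1 was lower, the aggrecanase gene ADAMTS5 (-1.84). The median of -0.20 on that day lay between -0.04 and 0.13 under the other scalings. The hyaluronan receptor gene CD44 had differences of -0.48, -0.70 and -0.22, and the aggrecanase gene ADAMTS4 0.23, -0.41 and -0.19. No member of this list passed for beta-TCP, and MMP3 (limma adjusted p = 0.0199) and MMP13 (0.0118) passed the F test over days.

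**Figure D4:**
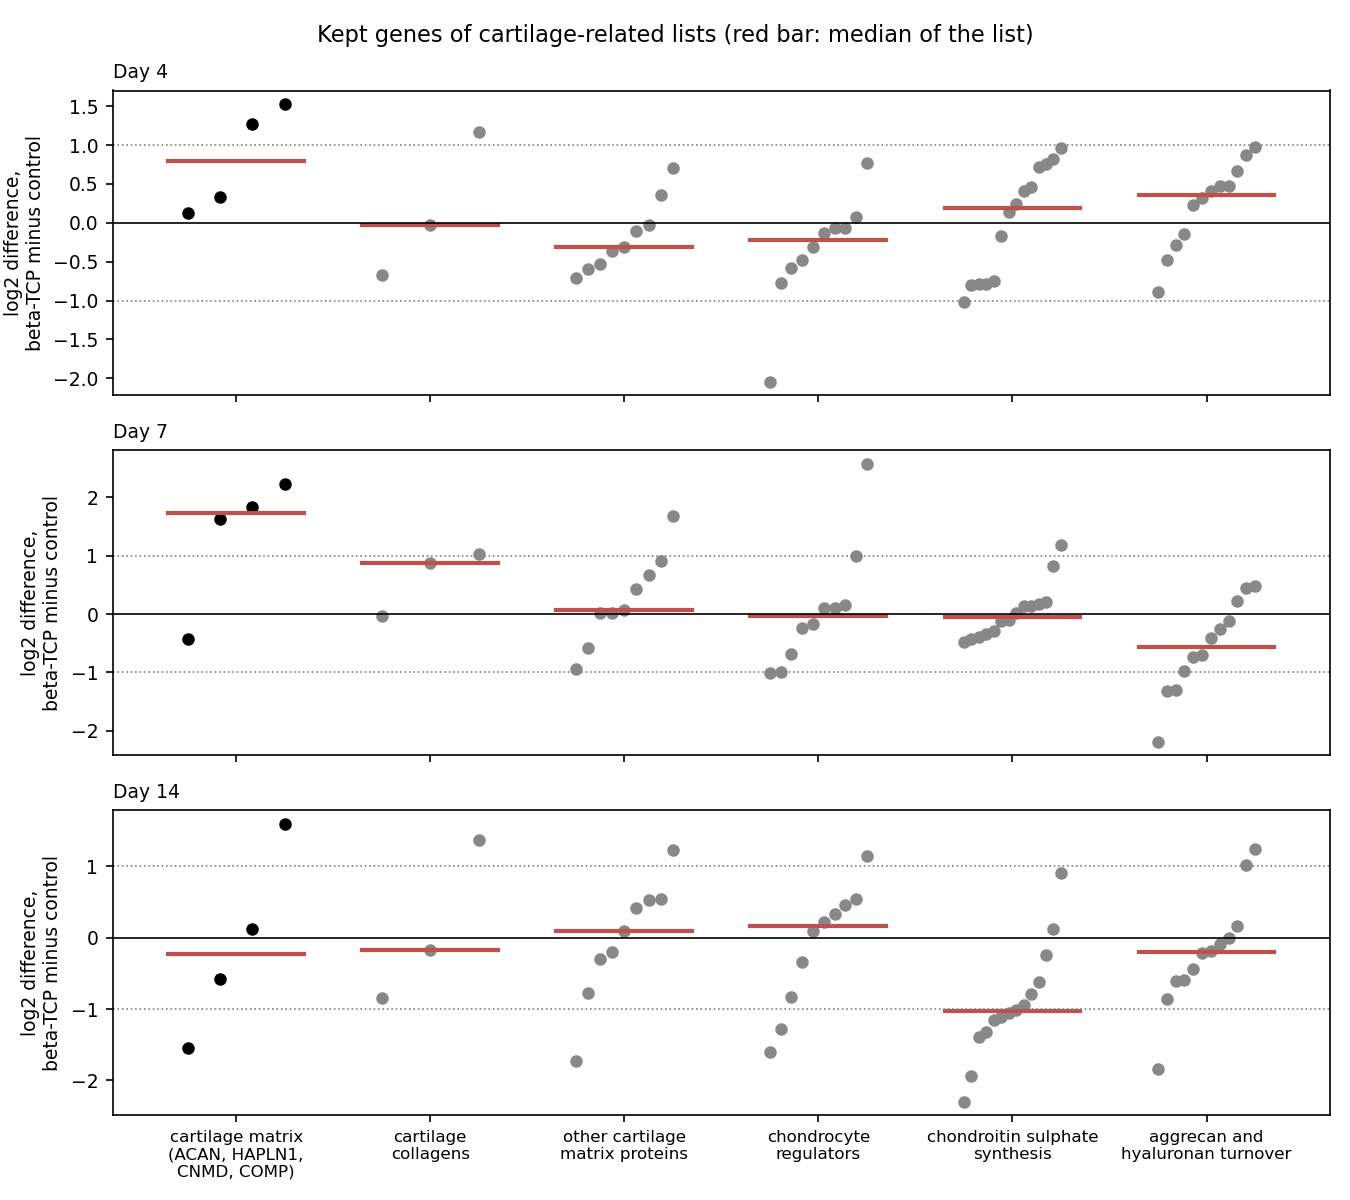
Log2 difference, beta-TCP minus control, of each kept gene (points) in the cartilage matrix set and 5 lists of related genes on days 4, 7 and 14, with the median of each list as a red bar and dotted lines at 2-fold. The cartilage matrix set has the highest median on days 4 and 7, and the chondroitin sulphate list the lowest at day 14.

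Markers of other cell types were read on the same arrays. In such bulk samples, fewer cells of a type and less RNA per cell cannot be told apart. Osteoblast markers had a summed level of 2033 to 4691 on the beta-TCP arrays and 1840 to 2727 on the control arrays. Most of it came from the type I collagen genes and SPP1. IBSP and ALPL were above the array median on all 6 arrays. MEPE and BGLAP were near the floor on every control array and on the beta-TCP day 4 array, and SP7 had no probe set. Of 11 kept osteoblast genes, 3, 5 and 4 were at least 2-fold higher on days 4, 7 and 14 and 0 lower. MEPE and BGLAP, counted on days 7 and 14, passed the filter only through their beta-TCP readings of those days. Their place in these counts is therefore not independent of the filter. Of all kept genes, 4.52%, 2.96% and 3.47% were higher on these days and 3.1%, 3.44% and 15.4% lower. IBSP, the gene of bone sialoprotein, was higher by 2.50, 2.16 and 1.50. MEPE and PHEX, known from osteocytes, differed by -0.04 and -0.33 at day 4, by 3.02 and 2.04 at day 7 and by 2.50 and 2.41 at day 14. Their control readings on days 7 and 14 were near the floor, so these sizes follow the pseudocount. Genes of tendon and ligament, where COMP is also made, were kept in 6 cases, and SCX and MKX had no probe set. Their summed level was 43.1 to 72.2 on the beta-TCP arrays and 40.8 to 71.8 on the control arrays. Most of it came from EGR1 and ASPN, so the sum is no measure of tendon tissue. On the array with the high COMP reading, 5 of these 6 genes were lower than on its control, and EGR1 was higher (31.1 against 18.6). Most of all kept genes were lower there as well, and under the other scalings 3 or 4 of the 6 were. The tendon gene TNMD read 1.55 there against 5.44 on its control. The part of these genes in the COMP reading was not tested. ASPN, which had the largest average difference of the list, differed by 2.52, 2.95 and -2.62, THBS4 by 0.67, 1.45 and -0.15, and EGR1 by -1.45, -0.16 and 0.71.

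Stratified epithelium, in which SOX9 can also be transcribed, differed most at day 4. All 8 kept markers of 13 were then at least 2-fold lower with beta-TCP, where 3.1% of all kept genes were. Among them, IVL passed the filter only through its control day 4 reading (7.61). The summed level was 23.7 with beta-TCP against 281 in the control. The sums were 57.8 against 70.1 at day 7 and 35.9 against 19.0 at day 14. The defining gene TP63 was near the floor on all 6 arrays. S100A14 differed by -3.66, KRTDAP by -3.82 and SBSN by -2.27 at day 4. Epithelial markers were thus lower with beta-TCP at day 4, when ACAN and HAPLN1 were higher by 1.52 and 1.27. At day 7 ACAN and HAPLN1 were higher by 2.23 and 1.62. On that day 2 of the 8 epithelial markers were at least 2-fold higher and 1 lower, against 2.96% and 3.44% of all kept genes. The part of the epithelial markers in the ACAN and HAPLN1 differences was not tested. Skeletal muscle markers had sums of 8.31 to 14.5 with beta-TCP and 10.1 to 11.4 in the controls. Of 8 of them with a probe set, 4 were near the floor on all 6 arrays, and the 3 kept genes ACTA1, DES and MYL1 differed by at most 1.33 on any day.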

How the data were processed

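Total RNA of 6 bone cylinders was hybridised to an Affymetrix canine array after labelling from 100 ng, per the labels' protocols. The authors deposited the values of days 4 and 7 as a ratio, made by dividing each signal by the median of its array and setting the lowest values to 0.01, as the deposited values show (column medians of 1.00). The authors deposited the values of day 14 as an intensity that was not divided by the median (medians of 6.20 with beta-TCP and 12 in the control), again read from the values. No label names the software or the summarization, and no detection calls were used.

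Each column was divided by its median and log2(value + 1) was taken. Of the probe sets, 29254 had 1 gene symbol. Left out were 90 pairs of probe sets that share a name and end in _a_at and _at, because all 17 pairs over 2 log2 units apart at both early and late days had the opposite order at day 14. Single-day and between-day differences had no test. The additive fit used limma 3.58.1 in R 4.3.3 with Benjamini-Hochberg adjustment over all kept genes, two-sided, and was tested on simulated data. Replicate arrays were not available in any group. The members, the gene lists and the processing were chosen with earlier results of these data known. Named genes were all members, the 3 genes most like each kept member, and from each list the 3 kept genes with the largest absolute average difference. Defining markers, genes counted singly and genes past a threshold were added after their values were seen. Alternatives were the pseudocount, the scaling, the choice of probe sets, the filter and the days fitted.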

Additional observations from a re-analysis of the deposited data

Results flagged for a closer look

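With 1 array per group, members whose treatment difference had opposite signs on 2 days, and was at least 2-fold on 1 of them, were singled out, by a rule set after their values were seen. The difference between the days was not tested for any of them. For ACAN, the log2 difference of beta-TCP minus control at day 14 (-0.58) stood -2.11 from that at day 4 (1.52) and -2.82 from that at day 7 (2.23). For HAPLN1, the difference at day 14 (-1.55) stood -2.82 from that at day 4 (1.27) and -3.17 from that at day 7 (1.62). COMP ran the other way, with 1.59 at day 14 and -0.43 at day 7, a gap of 2.02. All 5 gaps involve the day 14 pair, whose beta-TCP array stands apart from the rest, and the part of that in the gaps was not tested.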

How the results depend on the processing

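No paired analysis was possible because each group holds 1 array and the labels carry no replicate numbers, so that the arrays of a day are matched only by the day term of the additive fit. Of the alternatives, none reversed a single-day or between-day difference of at least 2-fold. There were 333 alternative values over 9 comparisons, with 10 alternatives for COMP and 9 for each of ACAN, HAPLN1 and CNMD. These values include differences under 2-fold, which could not count as reversed. ACAN, HAPLN1 and CNMD have 1 probe set each, so alternatives in the choice of probe sets or the filter leave their values unchanged by construction. With a pseudocount of 16, 0 of 4 members differed at least 2-fold between treatments at days 4 and 14 (against 2 and 2) and 1 at day 7 (against 3), and 0 differed in any interval between days (against 2, 3 and 2 on the beta-TCP arrays and 1, 2 and 2 on the control arrays), by construction, since it compresses low values. A pseudocount of 0.25 gave 4 against 2 for day 14 minus day 4 on the beta-TCP arrays. Cfa probe sets alone measure fewer members and gave 1 at days 4, 7 and 14 and 1 in the other intervals that changed, and CfaAffx probe sets alone gave 1 at day 4, and 0, 1, 1 and 1 in the intervals that changed. The mean of probe sets gave 1 at day 14 and 1 for day 14 minus day 4 with beta-TCP, as the third COMP probe set pulled its mean down. For the average effect of beta-TCP, 2 members passed without the day 14 pair (ACAN 1.88, HAPLN1 1.45; 2.09% of all kept genes) against 0, and for days 1 member passed without the day 7 pair and 1 without the day 14 pair (ACAN in each; 6.71% and 10.4% of all kept genes passed there), against 0. The average turned to -0.14 for HAPLN1 without day 7 and to -0.15 for COMP without day 14; neither passed. Over all kept genes, the average effect of beta-TCP was called for 3 genes with centring, 6 with Cfa probe sets alone, and 17, 29 and 220 without the pair of day 4, 7 and 14, against 0. The F test over days called between 0 (pseudocount 16, and no filter) and 1096 genes (without the day 14 pair), against 312. With 1 array per group no other spread is known.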

Other observations

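The next 3 cartilage-related genes are not members and were picked after their values were seen. MIA, which encodes a small protein secreted by chondrocytes, did not pass the filter. It read 0.155 with beta-TCP against 1.69 in the control at day 4, 0.225 against 1.30 at day 7 and 0.177 against 0.342 at day 14, so its beta-TCP readings were near the floor on all 3 days. ADAMTS5, which encodes an enzyme that cleaves aggrecan, read 2.55 with beta-TCP against 0.804 in the control at day 4, 8.72 against 7.32 at day 7 and 0.0806 against 2.88 at day 14. It was near the floor on the beta-TCP day 14 array, where ACAN read 11.6 and HAPLN1 2.44. FGFR3, a growth plate receptor gene below the filter, read 0.349 with beta-TCP against 0.962 in the control at day 4. It read 0.923 against 0.0935 at day 7 and 1.34 against 0.0917 at day 14. All its readings but that on the beta-TCP day 14 array were near the floor.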
